A study of Mus musculus with 27 samples.

Results

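The measurements described here are the responses to transforming growth factor β (TGFβ) of mouse mammary tumour cell lines that carried the B9/B9L ΔHD2/- genotype. They come from 6 of the 27 RNA-seq libraries of the study: lines 1, 2 and 3 of this genotype, each kept for 4 days in growth medium with TGFβ at 2 ng/ml or without cytokine. Each line was compared with itself, and all 13270 genes that passed a filter on low values were tested. B9 and B9L are the proteins of Bcl9 and Bcl9l, and HD2 is the homology domain through which they bind β-catenin, while HD1 binds Pygopus. All lines of the study were derived from tumours of FVB/N mice that expressed polyoma middle T antigen from the MMTV promoter (MMTV-PyMT), and tumours of thoracic glands were the source. In ΔHD2/- cells one copy of both genes lacked the HD2 domain and the floxed wild-type copy had been removed in culture by an adenovirus encoding Cre and GFP, with a sort for GFP. The 2 floxed genotypes, ΔHD1/fl and ΔHD2/fl, kept that wild-type copy, and ΔHD1/- had lost it, with 2 lines for each of these 3 genotypes. All cells were plated together, received fresh cytokine or medium every second day, and were harvested for RNA together.

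TGFβ ligands bind a pair of serine/threonine kinase receptors that phosphorylate Smad2 and Smad3, which enter the nucleus with Smad4 and bind gene promoters with partners such as AP-1. Target genes include inhibitors of the pathway itself, such as Smad7, and genes for extracellular matrix, its receptors and proteases. In mammary epithelial cells TGFβ is known for slowing proliferation and for starting the epithelial to mesenchymal transition (EMT), in which cadherin 1 is lost and cadherin 2, vimentin and fibronectin are gained.

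Lines 2 and 3 were close to one another and line 1 was not. Within one treatment the log2 values of lines 2 and 3 had Pearson correlations of 0.993 to 0.997 across genes, and line 1 had correlations of 0.885 to 0.907 with either. The chi-square statistic of the read counts per degree of freedom was 13.4 to 35.71 for lines 2 and 3 and 308.7 to 380.6 for pairs with line 1, which also counts any difference between cultures of one line and so does not show how far apart lines 2 and 3 are in origin. They were kept as separate samples because the titles number them so. The labels' protocol speaks of lines from fewer mice than the 3 lines its titles list. A figure legend of the study names 2 tumours of thoracic glands as the source of the cells. Whether lines 2 and 3 share a tumour was not given. A gene was therefore called only where line 1 and the mean of lines 2 and 3 each changed by at least 1 on the log2 scale in the same direction, besides an adjusted p of at most 0.05 and an average change of at least 1 (limma, Benjamini-Hochberg). The p-values treat the lines as 3 samples. The 6 libraries held 22206058 to 27046316 reads, with a median of 23938024, so that 3 reads, the smallest count read here as a level, stood for 0.111 to 0.135 CPM, the count per 1000000 reads of the library.

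Markers of epithelial and other cell types were read first. Epcam, an epithelial adhesion molecule of the marker list, was at 852, 804 and 910 CPM without cytokine and at 735, 965 and 951 CPM with TGFβ. Krt8, a keratin of simple epithelia, was at 1388, 601 and 621 CPM without cytokine and at 2714, 1193 and 1365 CPM with TGFβ. Not all epithelial markers were present. Of 18 luminal markers 12 reached 1 CPM in any line without cytokine and 8 with TGFβ, and of 14 basal markers 11 and 8. Gata3, an epithelial transcription factor chosen after its values were seen, was at 61.7, 0.135 and 0.0419 CPM without cytokine. The fibroblast, leukocyte, endothelial and adipocyte marker lists were low in both conditions. The 13 fibroblast markers summed to 2.93 to 19.1 CPM without cytokine and to 4.95 to 33 CPM with TGFβ, with Lum, Fap, Thy1, Dpt and Tcf21 at 0, and the 14 leukocyte markers summed to 3.36 to 6.75 and 5.95 to 15.7 CPM, with 8 of them at 0, Adgre1, Cd3e and Tyrobp among these. The 10 endothelial markers summed to 2.57 to 8.69 CPM without cytokine and 1.5 to 17.1 CPM with TGFβ. Of these lists only Csf1r, the receptor for colony stimulating factor, was called, at 0.48, 0 and 0 CPM without cytokine and 11.5, 2.7 and 3.38 CPM with TGFβ (log2 change 2.37, adjusted p = 0.0151, limma), and the call was lost when any one line was left out (adjusted p = 0.102, 0.0819 and 0.0958 without lines 1, 2 and 3) or the 6 libraries were fitted alone (0.0503). Bcl9 was at 43.8, 54.1 and 52.8 CPM without cytokine and at 38.2, 45.9 and 45.4 CPM with TGFβ, and Bcl9l was at 181, 149 and 138 CPM untreated and at 117, 115 and 123 CPM treated. Neither passed the test (log2 changes -0.21 and -0.39, adjusted p = 0.52 and 0.103, limma). Counts over a whole gene do not show whether the HD2 part is missing.

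TGFβ changed 492 of the 13270 genes tested in the same direction in line 1 and in lines 2 and 3 (3.71%), of which 187 were higher (1.41%) and 305 were lower (2.3%) with TGFβ. Before that agreement was required, 800 genes passed the adjusted p and the fold change. Of the 308 genes that did not meet it, 236 fell short, or were opposite, in line 1 and 72 in the pair. Line 1 changed by at least 1 on the log2 scale in 1841 genes and the pair in 1410, but both did so in the same direction in 206 genes that were higher and 372 that were lower, and in opposite directions in 58. Across all genes the change in line 1 had a Pearson correlation of 0.406 with that in line 2 and 0.426 with that in line 3, whereas lines 2 and 3 had 0.941. These are correlations across genes, which are not independent replicates. The median change over all genes was -0.09, with -0.21 in line 1 and -0.02 in line 2. With libraries scaled by the median of ratios this median was 0 and 462 genes were called, of which 229 were higher and 233 lower, 49.6% against 38% higher with CPM.

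**Figure D1:**
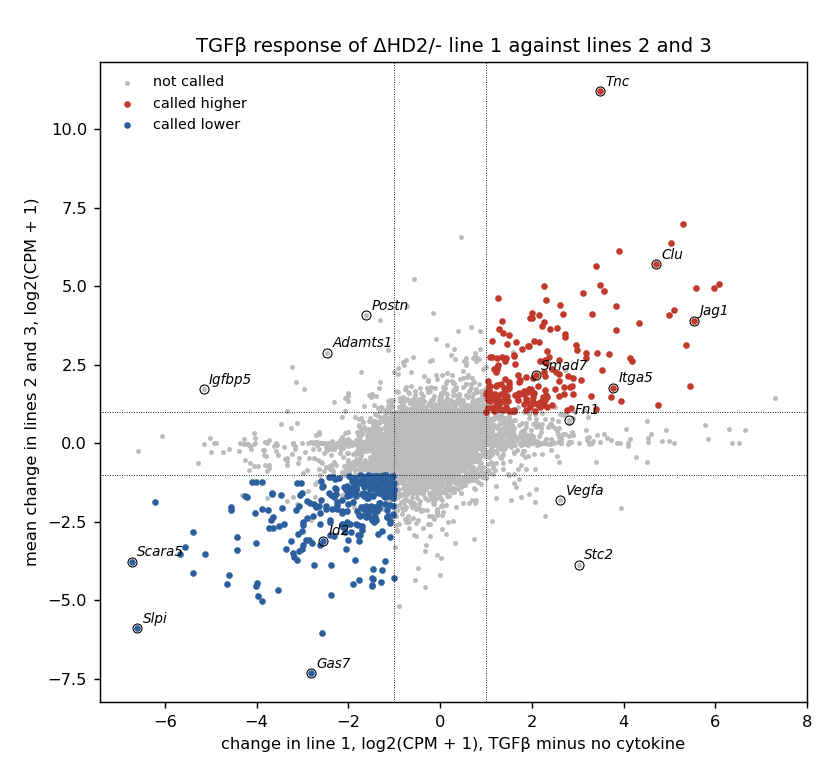
Change with TGFβ in line 1 (x axis) against the mean change of lines 2 and 3 (y axis), both on the log2(CPM + 1) scale, for all 13270 genes tested. The 187 genes called higher and the 305 called lower lie in the upper right and lower left corners, and the 58 genes with opposite changes lie in the other corners.

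Among the genes that rose most with TGFβ, several were near the counting floor in untreated lines 2 and 3. Tnc codes for tenascin-C, a large matrix glycoprotein, at chr4:63959785-64047015 (GRCm38). It was at 1575, 0.135 and 0.126 CPM without cytokine and at 17573, 2381 and 2975 CPM with TGFβ, a mean log2 change of 8.63 (SE 1.36, adjusted p = 0.00148, limma), with 3.48 in line 1 and 11.03 and 11.37 in lines 2 and 3. Every TGFβ library exceeded every untreated one, although untreated line 1 had a level near that of treated lines 2 and 3. Tns1 codes for tensin 1, which links integrins to actin, and was at 5.07, 0.135 and 0.126 CPM without cytokine and at 238, 122 and 161 CPM with TGFβ (6.41, SE 0.83, adjusted p = 0.000474). Ccn4, a secreted matricellular protein, was at 1.05, 0.0901 and 0.251 CPM untreated and at 66.1, 91.6 and 99.4 CPM treated (5.92, SE 0.74, adjusted p = 0.000382). For Tns1 and Ccn4 the 3 treated libraries were high alike and no untreated library exceeded 5.07 CPM. Untreated values of 0.135 CPM or less are 3 reads or fewer, and the log2 change of such a gene depends on the 1 CPM added before taking logs. The Tnc and Tns1 loci overlap other annotated genes, and the use of strand in the counting was not stated. When the 6 libraries were fitted alone, still with the block by line but without the spread shared with the other 21, the Tnc call was lost (adjusted p = 0.103, limma).

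Clu codes for clusterin, a secreted chaperone, and was at 344, 39.5 and 38.3 CPM without cytokine and at 8954, 2018 and 2108 CPM with TGFβ (5.36, SE 0.46, adjusted p = 3.48e-05, limma). Col7a1, the collagen of the anchoring fibrils below epithelia, was at 63.7, 9.68 and 7.24 CPM untreated and at 971, 603 and 700 CPM treated (5.38, SE 0.58, adjusted p = 0.00016). Line 1 was the highest library for both genes in both conditions. Jag1 codes for a Notch ligand and was at 32.2, 24.6 and 22.2 CPM without cytokine and at 1542, 315 and 420 CPM with TGFβ (4.45, SE 0.29, adjusted p = 4.89e-06). Notch4, a Notch receptor, was at 0.568, 5 and 3.31 CPM untreated and at 15.4, 229 and 286 CPM treated (4.9, SE 0.57, adjusted p = 0.000239), here with line 1 lowest, and with the 6 libraries alone the Notch4 call was lost by a margin in the fifth decimal (adjusted p = 0.05). Dgkk (a diacylglycerol kinase; 5.4), Adgra1 (an adhesion G protein-coupled receptor; 5.28) and Mab21l4 (5.15) were also among the 12 largest rises of genes with at least 5 CPM in each treated library (adjusted p = 0.0029, 0.00146 and 0.000618). Mab21l4 was at 7.16, 4.37 and 3.18 CPM without cytokine and at 388, 121 and 171 CPM with TGFβ. Moxd1, a monooxygenase gene, was at 0.655, 2.75 and 2.14 CPM untreated and at 17.4, 96.8 and 126 CPM treated (4.51, adjusted p = 0.00564), and its call was lost without line 2 or line 3 (adjusted p = 0.0624 and 0.0768).

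**Figure D2:**
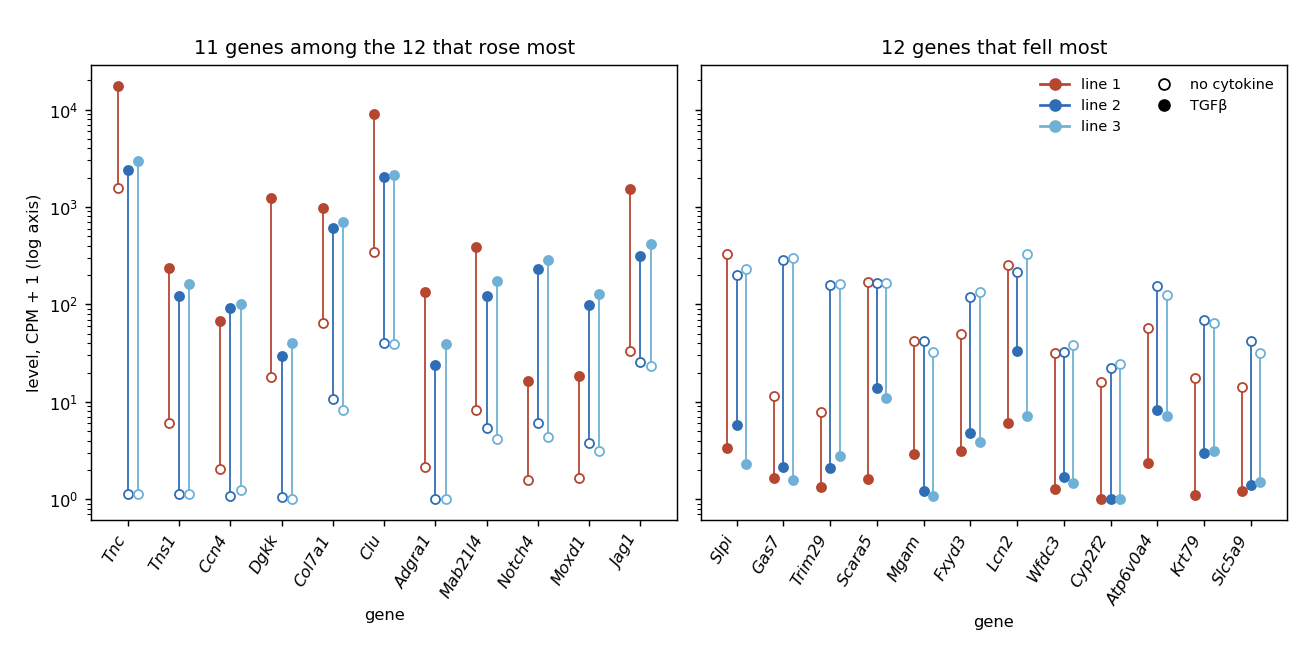
Level as CPM + 1 (log axis) of 11 of the 12 genes that rose most (left) and the 12 that fell most (right) in the 3 ΔHD2/- lines, with open points for no cytokine, filled points for TGFβ and 1 bar joining the libraries of a cell line. Untreated lines 2 and 3 lie at the bottom of the axis for Tnc, and all 3 treated lines do so for Cyp2f2.

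The genes that fell most included secreted defence proteins of glandular epithelia. Slpi, the secretory leukocyte peptidase inhibitor at chr2:164354070-164356507 (GRCm38), was at 330, 199 and 231 CPM without cytokine and at 2.38, 4.73 and 1.29 CPM with TGFβ, a log2 change of -6.13 (SE 0.89, adjusted p = 0.000988, limma). Lcn2, the iron-siderophore binding lipocalin 2, was at 252, 213 and 332 CPM untreated and at 5.03, 32 and 6.09 CPM treated (-4.55, SE 0.74, adjusted p = 0.00179). The conditions did not overlap for either gene, and treated line 2 kept the most Lcn2. Scara5, a ferritin receptor, was at 169, 165 and 165 CPM untreated and at 0.605, 12.8 and 9.84 CPM treated (-4.75, SE 0.53, adjusted p = 0.000192). Mgam, maltase-glucoamylase, was at 41.5, 41.6 and 31.4 CPM untreated and at 1.89, 0.222 and 0.0834 CPM treated (-4.63). The untreated lines had nearly the same level of Scara5 and of Mgam, and all 3 fell. Cyp2f2, a cytochrome P450, was at 15.1, 21.1 and 23.2 CPM without cytokine and had no read in any TGFβ library, so it was at least 170-fold lower in the group mean when a treated library is set at 3 reads. By line this bound was 133, 190 and 185. The calls of Lcn2 and Scara5 were lost with the 6 libraries alone (adjusted p = 0.066 and 0.0675).

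Most of the other genes among the 12 largest falls were lower in line 1 already without cytokine. Gas7, a cytoskeletal adaptor, was at 10.6, 283 and 301 CPM without cytokine and at 0.643, 1.15 and 0.584 CPM with TGFβ (-5.81, SE 0.82, adjusted p = 0.000799, limma). Trim29, a tripartite motif protein of stratified epithelia, was at 6.94, 156 and 160 CPM untreated and at 0.341, 1.11 and 1.79 CPM treated (-4.88, SE 0.81, adjusted p = 0.00207). The treated libraries of both genes lay between 0.341 and 1.79 CPM, whatever the untreated level. Atp6v0a4, a proton pump subunit, went from 56.2, 155 and 125 CPM to 1.36, 7.28 and 6.09 CPM (-4.33), and Fxyd3, a regulator of the sodium pump, from 48.7, 118 and 132 CPM to 2.16, 3.77 and 2.83 CPM (-4.58, adjusted p = 0.00324). Wfdc3 (-4.54) belongs to the same gene cluster of protease inhibitors as Slpi, and Slc5a9 (-4.28) is a sugar transporter. The keratin Krt79 was at 16.7, 68.9 and 63.4 CPM untreated and at 0.114, 2 and 2.13 CPM treated (-4.3, adjusted p = 0.0158). The call of Krt79 was lost without line 2 or 3 (adjusted p = 0.115 and 0.106), and that of Fxyd3 without line 3 (adjusted p = 0.0535). Gas7 and Trim29 lost theirs with the 6 libraries alone (adjusted p = 0.087 and 0.0797).

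Several feedback and early target genes of the TGFβ pathway rose, while none of its ligands, receptors and receptor-regulated or common Smads was called. Of the 32 measured members of the feedback list, 9 rose (28.1%, beside 1.41% over all genes) and 1 fell, and 22 were not called, with a median log2 change of 0.55 beside -0.09 over all genes. Smad7, the inhibitory Smad, was at 52.8, 33.9 and 33 CPM without cytokine and at 228, 140 and 168 CPM with TGFβ (2.14, SE 0.18, adjusted p = 2.97e-05, limma). The conditions did not overlap, and the change in Smad7 differed little between lines (2.09, 2.02 and 2.31). Ccn2, connective tissue growth factor, was at 187, 142 and 131 CPM untreated and at 917, 861 and 872 CPM treated (2.54, SE 0.67, adjusted p = 0.0242). The call of Ccn2 was lost without line 1, 2 or 3 (adjusted p = 0.0783, 0.146 and 0.153), although its change was close to this in each of the 3 lines (2.29, 2.59 and 2.72). With the 6 libraries alone the Ccn2 call was kept. The spread in the full fit takes in the 2 ΔHD1/- lines, in which Ccn2 changed by 3.32 and 8.64.

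The other members called higher, named outside the naming rule after their values were seen, were Cdkn1a, Bhlhe40, Lif, Pdgfa and Pdgfb. Cdkn1a, the inhibitor of cyclin-dependent kinases p21, was at 117, 251 and 254 CPM without cytokine and at 304, 502 and 552 CPM with TGFβ (1.16, adjusted p = 0.0165, limma). Bhlhe40, a transcriptional repressor, was at 136, 119 and 94.9 CPM untreated and at 668, 457 and 492 CPM treated (2.19, adjusted p = 5.52e-05). Pdgfb, a platelet-derived growth factor chain, was at 103, 83.5 and 72.4 CPM untreated and at 265, 518 and 527 CPM treated (2.27, adjusted p = 0.0214). The treated libraries of these genes lay above the untreated library of the same line throughout. Id2 fell, from 88.8, 78.3 and 86.7 CPM to 14.4, 7.58 and 10.1 CPM (-2.91, SE 0.51, adjusted p = 0.00283), and codes for a dominant-negative partner of helix-loop-helix factors. Its relative Id1 passed the adjusted p but was not called, since the mean change of lines 2 and 3 was under 1. It was at 105, 116 and 134 CPM without cytokine and at 13.2, 72.8 and 65.6 CPM with TGFβ (-1.53, adjusted p = 0.0111). The Cdkn1a, Lif and Pdgfb calls were lost without line 2 or 3 (adjusted p = 0.0741 and 0.091, 0.124 and 0.111, and 0.149 and 0.176), and that of Pdgfb also with the 6 libraries alone (adjusted p = 0.0675). Without line 3, or with lines 2 and 3 averaged, 5 members of the list were higher and 1 lower, and without line 2 5 and 2. None of the 32 genes of the pathway list, which holds neither Smad6 nor Smad7, was called in either direction (median -0.02, limma). At an unadjusted p of 0.05 and a 1.5-fold change 4 of them were higher and 1 lower, and edgeR called 0. With limma 1 was higher without line 1 or with a pseudocount of 0.1, and 1 lower with the 6 libraries alone.

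Of 28 measured matrix glycoproteins and proteoglycans, 6 rose (21.4%) and 2 fell (7.14%), with a median of 0.5, and of 34 collagens and collagen-processing enzymes 3 rose (8.82%) and 1 fell (2.94%), with a median of 0.64. Over all genes 1.41% rose and 2.3% fell. Besides Tnc, the basement membrane laminin chain Lama3 was at 32.2, 1.35 and 1.26 CPM without cytokine and at 670, 30.9 and 33.3 CPM with TGFβ (4.01, SE 0.4, adjusted p = 8.9e-05, limma). Other risers, named outside the rule, were the laminin chain Lamb1 (2.58), Fbln2 (2.22) and the hyaluronan synthase Has2, which went from 36.2, 1.04 and 0.377 CPM to 657, 10.7 and 9.46 CPM (3.2, adjusted p = 0.000278). The Lamb1 call was lost without line 2 or 3 (adjusted p = 0.0895 and 0.0693) and that of Fbln2 without line 1 or 3 (adjusted p = 0.0811 and 0.069). Spp1, osteopontin, fell from 2690, 1817 and 1684 CPM to 322, 623 and 509 CPM (-2.11, SE 0.36, adjusted p = 0.00238). Lama4 also fell (-2.12, adjusted p = 0.0319), a call lost without line 1, 2 or 3 (adjusted p = 0.244, 0.107 and 0.073). With the 6 libraries alone the calls of Lamb1, Fbln2, Spp1 and Lama4 were lost (adjusted p = 0.0726, 0.163, 0.0773 and 0.166). Fn1, fibronectin, was at 4149, 8664 and 7273 CPM untreated and at 29081, 12583 and 14206 CPM treated. Its log2 change of 1.44 did not pass the test (adjusted p = 0.0759, limma), with 2.81 in line 1 and 0.54 and 0.97 in lines 2 and 3.

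Among the collagen genes Bmp1, the procollagen C-proteinase, was at 455, 113 and 122 CPM without cytokine and at 1053, 559 and 584 CPM with TGFβ (1.91, SE 0.29, adjusted p = 0.0013, limma). Plod2, a lysyl hydroxylase named outside the rule, was at 20.9, 59.7 and 41.9 CPM untreated and at 86.2, 169 and 145 CPM treated (1.75, adjusted p = 0.0117). Loxl4, a lysyl oxidase, fell from 165, 1983 and 2401 CPM to 47.8, 113 and 98 CPM (-3.49, SE 0.65, adjusted p = 0.00411), and untreated line 1 was far below the other 2 untreated lines. The Loxl4 call was lost without line 2 or 3 (adjusted p = 0.0554 and 0.0673), and that of Plod2 without line 1, 2 or 3 (adjusted p = 0.0645, 0.075 and 0.088). Bmp1 and Loxl4 lost their calls with the 6 libraries alone (adjusted p = 0.0615 and 0.084). The collagen list had 9 higher and 1 lower without line 1 and 8 and 1 with a pseudocount of 0.1, but 2 higher and 0 lower by limma without line 2 or 3, with the pair averaged or with the 6 libraries alone. The glycoprotein list had 4 higher and 1 lower with lines 2 and 3 averaged, 3 and 1 without line 3, and 2 and 0 with the 6 libraries alone.

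Receptors for matrix and the enzymes that cut it changed in both directions. Of 24 integrin and focal adhesion genes, 4 rose (16.7%, beside 1.41% over all genes) and 2 fell (8.33%, beside 2.3%), with a median of 0.49. Without line 1, 2 or 3 there were 6, 4 and 3 higher and 0 lower by limma. Itga5, the fibronectin receptor subunit, was at 38.1, 28.2 and 26.2 CPM without cytokine and at 536, 86.8 and 104 CPM with TGFβ (2.44, SE 0.36, adjusted p = 0.000988, limma), a call lost with the 6 libraries alone (adjusted p = 0.0965). Itgb3 was at 21, 0 and 0 CPM untreated and at 170, 5.8 and 10 CPM treated (3.06, SE 0.45, adjusted p = 0.00107). Line 1 was highest for both genes with TGFβ, and untreated lines 2 and 3 had no Itgb3 read. Itgb1, the common β chain, named outside the rule, was at 1077, 646 and 598 CPM untreated and at 2335, 1274 and 1417 CPM treated (1.11, adjusted p = 0.00519), and its call was lost without line 3 (adjusted p = 0.0693). Itga6 and Itgb8 fell (-1.32 and -2.07, adjusted p = 0.0183 and 0.0186), and both calls were lost when any one line was left out, with adjusted p = 0.0899, 0.14 and 0.0904 for Itga6 and 0.0814, 0.111 and 0.0693 for Itgb8 without lines 1, 2 and 3.

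Of 29 proteases and inhibitors, 4 rose (13.8%, beside 1.41% over all genes) and 2 fell (6.9%, beside 2.3%), with a median of 0.27, and with the 6 libraries alone 2 rose and 2 fell. Adam12, a membrane metalloprotease, was at 54.4, 27.9 and 22.5 CPM without cytokine and at 481, 694 and 752 CPM with TGFβ (4.24, SE 0.58, adjusted p = 0.000677, limma). Adamts4, an aggrecanase, was at 27.2, 0.27 and 0.167 CPM untreated and at 134, 36.7 and 39.5 CPM treated (4.09, SE 0.67, adjusted p = 0.00202). Plau (urokinase) and Ctsf (cathepsin F), named outside the rule, also rose. Plau was at 223, 0.135 and 0.209 CPM untreated and at 1371, 18.6 and 30.1 CPM treated (3.8, adjusted p = 0.00118), and Ctsf at 0.175, 0.315 and 0 CPM untreated and at 6.77, 9.95 and 12.1 CPM treated (3.16, adjusted p = 2.24e-06). Timp3, an inhibitor of metalloproteases, fell from 2078, 6607 and 6740 CPM to 261, 1193 and 1030 CPM (-2.72, SE 0.72, adjusted p = 0.0245). The call of Timp3 was lost without line 1, 2 or 3 (adjusted p = 0.106, 0.127 and 0.139), although every treated library was below every untreated one. With the 6 libraries alone Adamts4 and Plau lost their calls (adjusted p = 0.0743 and 0.0503). Mmp9, a gelatinase chosen after its values were seen, was at 18.6, 0.135 and 0 CPM untreated and at 3086, 1.44 and 2.38 CPM treated, so its largest level was in line 1 alone.

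Among 20 genes of the contractile cytoskeleton 2 rose (10%, beside 1.41% over all genes) and 1 fell (5%, beside 2.3%). Without line 1 6 were higher and 1 lower, and without line 2 or 3, with the pair averaged or with the 6 libraries alone 1 was higher and 1 lower. Pdlim7, a scaffold of actin fibres, was at 109 CPM in all 3 untreated lines and at 355, 285 and 291 CPM with TGFβ (1.49, adjusted p = 0.000172, limma). Tpm1, a tropomyosin, was at 946, 548 and 543 CPM untreated and at 2695, 1090 and 1140 CPM treated (1.19, adjusted p = 0.00899), a call lost when any one line was left out (adjusted p = 0.0675, 0.0624 and 0.0693) or the 6 libraries were fitted alone (0.0503). S100a4, a calcium-binding protein often used as a mesenchymal marker, fell from 398, 857 and 990 CPM to 55, 249 and 247 CPM (-2.2, adjusted p = 0.00328).

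The classical EMT markers gave a mixed picture that mostly missed the calls. Cdh1, E-cadherin, was at 923, 682 and 712 CPM without cytokine and at 657, 369 and 390 CPM with TGFβ (-0.75, adjusted p = 0.688, limma). Cdh2, N-cadherin, was at 154, 137 and 127 CPM untreated and at 250, 373 and 389 CPM treated (1.25, adjusted p = 0.0679). Each treated library was lower for Cdh1 and higher for Cdh2 than the untreated library of its line, but neither passed the test. The Cdh1 SE of 1 takes in the spread over all 9 lines, among which the 2 ΔHD1/- lines changed by -7.27 and 0.06. Vim, vimentin, was at 761, 2.48 and 2.6 CPM without cytokine and at 853, 1.92 and 2.17 CPM with TGFβ (-0.09). The lines thus differed in vimentin far more than the treatments did. Of 20 EMT transcription factors 1 was called (5%, near the 3.71% over all genes), and that one fell (2 higher and 3 lower without line 1, and 0 and 3 with a pseudocount of 0.1): Foxc1, a forkhead factor, went from 47.7, 124 and 110 CPM to 15.6, 29.3 and 22.8 CPM (-1.94, SE 0.15, adjusted p = 1.48e-05). Zeb1 was at 1.31, 5.67 and 2.55 CPM untreated and at 11.5, 8.8 and 6.21 CPM treated (1.34, adjusted p = 0.182), and Snai1 at 38.6, 15.4 and 14.8 CPM untreated and at 48.8, 27.8 and 32.1 CPM treated (0.74, adjusted p = 0.12). Snai2 was at 2.79, 21.7 and 10.9 CPM untreated and at 1.1, 4.62 and 3.79 CPM treated (-1.39, adjusted p = 0.0262), not called because line 1 changed by -0.86. Zeb2 (0.74, adjusted p = 0.449) and the tight junction protein Tjp1 (-0.48, adjusted p = 0.241) did not pass either.

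Over the 7 lists of epithelial genes 4 of 92 measured genes were called (4.35%), near the 3.71% over all genes. No member of the adherens junction (15 measured) or desmosome (12 measured) lists was called, nor of the luminal (14 measured) or basal (12 measured) marker lists (limma). At an unadjusted p of 0.05 and a 1.5-fold change the adherens junction list had 3 higher and 1 lower, the desmosome list 0 and 1, the luminal list 1 and 2 and the basal list 1 and 3, and edgeR called 1 adherens junction gene and none of the rest. With limma 2 desmosome genes were lower with the 6 libraries alone and 1 adherens junction gene was higher without line 1, and a pseudocount of 0.1 gave 1 call each in the adherens junction, luminal and basal lists. The epithelial transcription factors had a median of -1.17 over 19 genes, with 2 called lower (10.5%, beside 2.3% over all genes). With lines 2 and 3 averaged, or without line 2 or 3, 0 of them were called by limma, while edgeR called 5 lower and 7 were lower at an unadjusted p of 0.05 and a 1.5-fold change. Grhl3 was at 14.4, 3.24 and 5.78 CPM untreated and at 0.227, 0.0739 and 0.0417 CPM treated (-2.78, adjusted p = 0.0218, limma), and Klf5 at 34.4, 31.3 and 33.4 CPM untreated and at 14, 10.8 and 11.3 CPM treated (-1.39, adjusted p = 0.0207). The Grhl3 call was lost without line 1, 2 or 3 (adjusted p = 0.0596, 0.0655 and 0.12) and the Klf5 call without line 2 or 3 (adjusted p = 0.124 and 0.135). A claudin and a keratin rose instead, each the 1 called gene of 15 tight junction and 16 keratin genes measured. Cldn4, claudin 4, was at 88, 3.96 and 4.56 CPM untreated and at 513, 25.1 and 23.3 CPM treated (2.35, adjusted p = 0.00969), with the call lost without line 2 or 3 (adjusted p = 0.0772 and 0.0673). The Cldn4 call was also lost with edgeR and with a pseudocount of 0.1. Krt7, a keratin of simple ducts, was at 1383, 12.7 and 14.8 CPM untreated and at 3317, 357 and 371 CPM treated (3.51, adjusted p = 0.00207). Krt7 and Grhl3 lost their calls with the 6 libraries alone (adjusted p = 0.113 and 0.0569). Keratins are a family of similar genes, and reads shared between them would be missing, since only unique hits were kept. In bulk RNA a lower level may reflect fewer cells of a type or less RNA per cell, which cannot be told apart here.

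Of 20 innate defence genes of the secretory epithelium, 12 passed the filter, of which 4 fell (33.3%, beside 2.3% over all genes) and 1 rose (8.33%, beside 1.41%), with a median of -1.65 beside -0.09 over all genes. Besides Slpi and Lcn2, the members C3 and Ceacam1 are named outside the rule. Complement C3 went from 51.9, 299 and 330 CPM to 6.81, 31.3 and 13.4 CPM (-3.5, adjusted p = 0.00339, limma) and the adhesion molecule Ceacam1 from 2.71, 39.9 and 30.6 CPM to 0, 0.739 and 0.5 CPM (-3.61, adjusted p = 0.00745). The exception was Clu. With lines 2 and 3 averaged 3 members were lower and 1 higher, and without line 3, or with the 6 libraries alone, 2 were lower and 1 higher. The C3 call was lost without line 3 (adjusted p = 0.0575) and that of Ceacam1 without line 2 or 3 or with the 6 libraries alone (adjusted p = 0.0895, 0.0813 and 0.0804).

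Of 25 interferon and antigen presentation genes, 3 fell (12%, beside 2.3% over all genes) and 1 rose (4%, beside 1.41%), with a median of -0.18. Irf7, an interferon regulatory factor, was at 3.36, 2.93 and 3.06 CPM without cytokine and at 0.341, 0.333 and 0.292 CPM with TGFβ (-1.64, adjusted p = 0.00645, limma). Ciita, the activator of class II genes, went from 1.44, 4.64 and 3.1 CPM to 0.114, 0.813 and 0.834 CPM (-1.31, adjusted p = 0.000491). H2-Ab1, a class II chain, rose from 0, 0.045 and 0 CPM to 3.48, 14.8 and 18.5 CPM (3.46, adjusted p = 0.00218), while Ciita fell. The Irf7 call was lost without line 2 or 3 (adjusted p = 0.0632 and 0.0673). Of 23 chemokines and cytokines 2 fell (8.7%): Cxcl1, a neutrophil attractant, from 45.1, 94.6 and 145 CPM to 5.15, 31.3 and 15.2 CPM (-2.55, adjusted p = 0.00684), and Il1rn from 15.3, 2.84 and 4.9 CPM to 2.38, 0.518 and 0.584 CPM (-1.84, adjusted p = 0.00379). Both were lost without line 3 (adjusted p = 0.0922 and 0.0518). The interferon list had 1 lower and 1 higher without line 2, and a pseudocount of 0.1 gave 4 lower chemokines and cytokines. With the 6 libraries alone Ciita, H2-Ab1, Cxcl1 and Il1rn lost their calls (adjusted p = 0.0505, 0.062, 0.0641 and 0.0533).

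Of 30 measured genes of the Wnt pathway 3 were higher and 3 lower (10% each, beside 1.41% and 2.3% over all genes), with a median at 0. With lines 2 and 3 averaged, without line 2 or line 3, or with the 6 libraries alone, 0 were higher and 2 lower by limma, and without line 1, 2 and 2. Notum, a secreted Wnt deacylase, was at 13.5, 36.4 and 35.8 CPM without cytokine and at 0.416, 2.77 and 2.46 CPM with TGFβ (-3.36, SE 0.43, adjusted p = 0.000463, limma). The receptor Fzd7 went from 192, 599 and 675 CPM to 28.8, 160 and 153 CPM (-2.24, adjusted p = 9.24e-05) and Lgr4, named outside the rule, from 115, 187 and 154 CPM to 22, 83.3 and 76.4 CPM (-1.5, adjusted p = 0.0117). The Lgr4 call was lost without line 1, 2 or 3 (adjusted p = 0.0997, 0.0626 and 0.0526). The ligands Wnt7a (2.6, adjusted p = 0.00559), Wnt9a (2.39, adjusted p = 0.0102) and Wnt11 (2.41, adjusted p = 0.039) rose. Wnt9a, outside the rule, was at 12.2, 5.72 and 5.94 CPM untreated and at 39.7, 46.1 and 45.5 CPM treated. The Wnt7a call was lost without line 2 or 3 (adjusted p = 0.0851 and 0.0553), that of Wnt9a likewise (adjusted p = 0.112 and 0.105) and that of Wnt11 without line 1, 2 or 3 (adjusted p = 0.266, 0.0736 and 0.104). Fitting the 6 libraries alone ended the calls of Wnt7a, Wnt9a, Wnt11 and Lgr4 (adjusted p = 0.0662, 0.0525, 0.206 and 0.0995). Axin2, a common readout of β-catenin transcription, was under 1 CPM and did not pass (-0.1, adjusted p = 0.899). Of the 10 members of the Bcl9 complex list 0 were called, also with edgeR and at an unadjusted p of 0.05 and a 1.5-fold change. Ctnnb1, β-catenin, was at 1120, 5094 and 5406 CPM without cytokine and at 1197, 3086 and 2963 CPM with TGFβ, so line 1 had the lowest level in both conditions.

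Notch4 and Jag1 were the 2 called members of the Notch list, of 11 measured (18.2%, beside 1.41% over all genes called higher), and the lines differed in the rest of it (3 higher without line 1, and 1 with the 6 libraries alone). The median change of the list was -1.09 in line 1 and 0.6 in the mean of lines 2 and 3. Of 23 growth factors and receptors 3 rose (13%, beside 1.41% over all genes) and 0 fell (limma, and edgeR on recovered reads), with 4 higher and 6 lower at an unadjusted p of 0.05 and a 1.5-fold change. Ephb2, an ephrin receptor, was at 11, 0.36 and 0.377 CPM without cytokine and at 129, 7.73 and 10.5 CPM with TGFβ (3.06, adjusted p = 0.00266). Hbegf, a ligand of the EGF receptor named outside the rule, was at 114, 24.3 and 26.3 CPM untreated and at 274, 85.3 and 105 CPM treated (1.66, adjusted p = 0.000905). Pdgfc was at 35.5, 0.0901 and 0 CPM untreated and at 76.7, 5.21 and 6.92 CPM treated (2.2, adjusted p = 0.0106), with the call lost without line 2 or 3 or with the 6 libraries alone (adjusted p = 0.108, 0.125 and 0.0911).

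Metabolic and stress lists had 0 to 2 called members each, 0% to 8% of those measured beside 3.71% over all genes. Aldh3a1, an aldehyde dehydrogenase, went from 57.6, 26.8 and 19.6 CPM to 0.681, 1.33 and 0.834 CPM (-4.06, adjusted p = 0.000562, limma) and was the 1 called gene of 23 in detoxification. Bnip3 (-1.35) fell among 25 genes of glycolysis and hypoxia, and Phgdh (-1.04) among 18 of amino acid metabolism. Kdelr3 (1.65) and Pdia5 (1.55) rose among 25 genes of the secretory pathway, and Gadd45a rose among 16 p53 targets, from 6.94, 5.04 and 4.06 CPM to 39.1, 42.1 and 39.9 CPM (2.73, adjusted p = 0.00322). The Kdelr3 and Gadd45a calls were lost without line 3 (adjusted p = 0.0513 and 0.0527), and that of Phgdh without line 2 or 3 (adjusted p = 0.0591 and 0.0717). Kdelr3 and Pdia5 lost their calls with the 6 libraries alone (adjusted p = 0.0503 and 0.0502). Without line 1 there were 4 lower genes of glycolysis and hypoxia, 3 higher p53 targets, and 2 higher and 3 lower genes of the secretory pathway. Of 24 genes of cholesterol and fatty acid synthesis, 0 were called (limma and edgeR), with 6 higher and 0 lower at an unadjusted p of 0.05 and a 1.5-fold change. Fasn, fatty acid synthase, was at 3059, 1147 and 1158 CPM untreated and at 4829, 2313 and 2646 CPM treated.

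**Figure D3:**
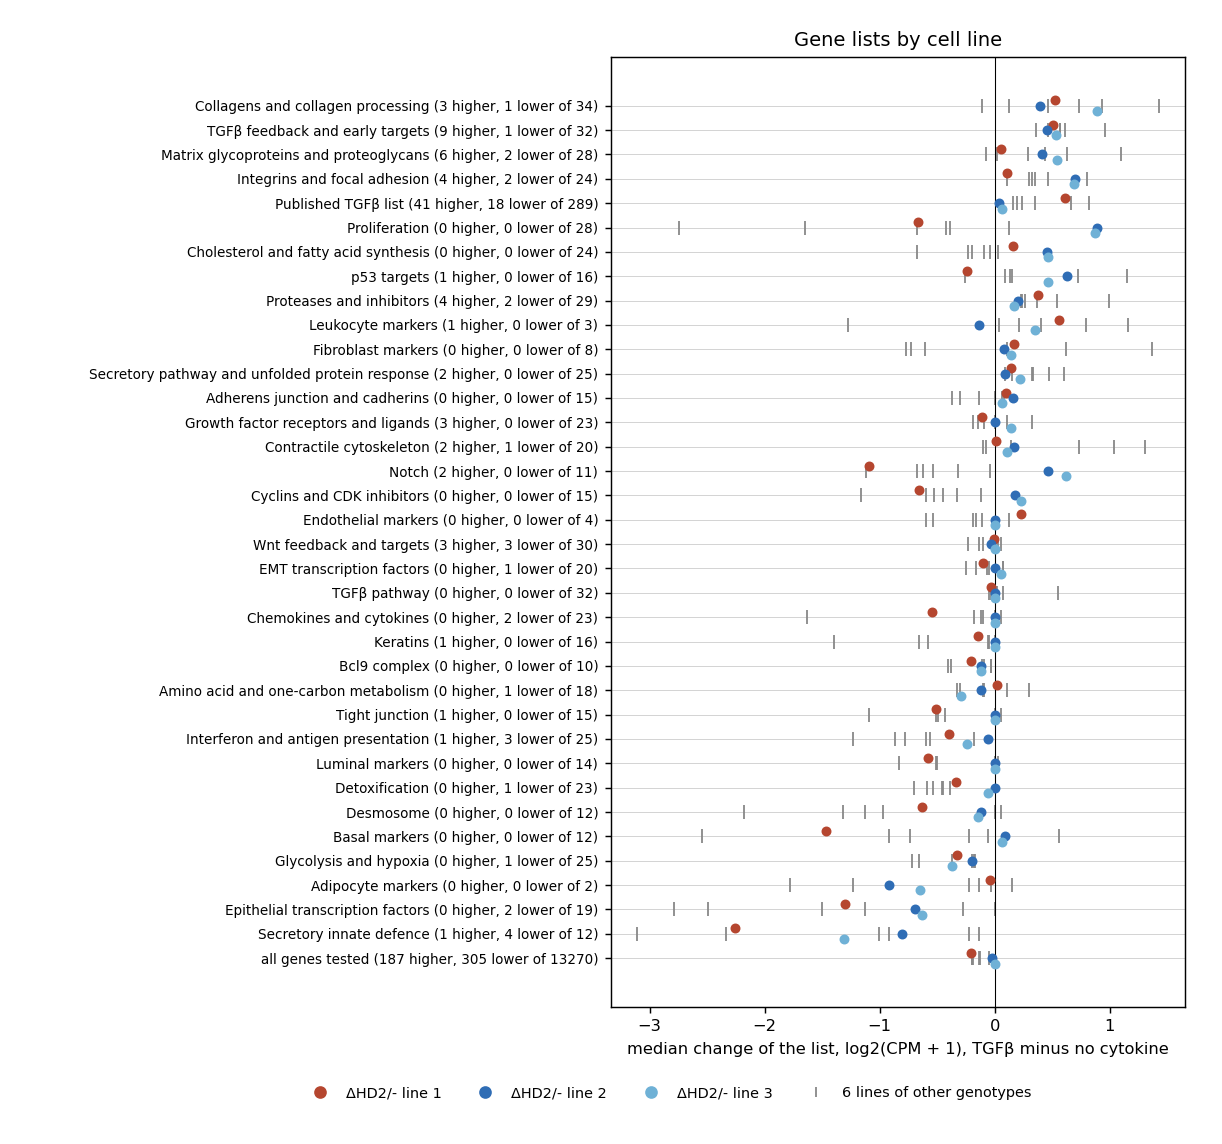
Median log2 change with TGFβ of the tested members of each gene list (rows, ordered by the median of the average change), as separate points for lines 1, 2 and 3 and as ticks for the 6 lines of other genotypes; the row labels give the genes called higher and lower of those tested. The medians of the innate defence and epithelial transcription factor lists lie below 0 in all 3 lines, and the proliferation and Notch lists lie below 0 in line 1 and above 0 in lines 2 and 3.

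A list of 301 genes that the study described as regulated by TGFβ and altered where β-catenin binding was disrupted was also read. As tabulated it is longer than the count that the study's text gives for this set, for a reason not stated there. It had been chosen in part on these same libraries, so its counts are not independent evidence of a direction. Of 289 measured members 41 rose (14.2%, beside 1.41% over all genes) and 18 fell (6.23%, beside 2.3%), with a median of 0.34 and with medians of 0.61 in line 1 and 0.05 in the mean of the pair. With lines 2 and 3 averaged 29 rose and 10 fell, without line 3 24 and 7, and with the 6 libraries alone 18 and 12. Called members not yet named, outside the rule, were Acsbg1 (4.38) and Marcksl1 (3.32), which rose, and Rasal1 (-3.48), which fell. Ctla2a, a cysteine protease inhibitor with a close paralogue and likewise outside the rule with it, rose from 42.6, 41 and 39.1 CPM to 516, 1177 and 1161 CPM (4.41, adjusted p = 0.00615, limma), and its paralogue Ctla2b by 2.13 (adjusted p = 0.00658). Reads that fit Ctla2a and Ctla2b equally well would be missing, since only unique hits were kept. The Ctla2a call was lost without line 2 or 3 (adjusted p = 0.0694 and 0.0739) and that of Ctla2b without line 1 or 3 (adjusted p = 0.0582 and 0.0616). Marcksl1 and Ctla2b lost theirs with the 6 libraries alone (adjusted p = 0.0639 and 0.0591).

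Most proliferation genes had a lower level with TGFβ in line 1 and a higher one in lines 2 and 3. In line 1, 27 of 28 genes were lower with TGFβ and 1 was higher, with a median log2 change of -0.67 and a range from -1.44 to 0.31. In line 2, 25 were higher and 3 lower (median 0.89), and in line 3, 27 were higher and 1 lower (median 0.87). With limma 0 were called, as with edgeR, and at an unadjusted p of 0.05 and a 1.5-fold change 2 were higher and 0 lower. Without line 1 limma called 3 higher and 0 lower, and with the 6 libraries alone 0 higher and 1 lower. Top2a, a topoisomerase of dividing cells, was at 530, 217 and 141 CPM without cytokine and at 260, 315 and 265 CPM with TGFβ. Mki67, the Ki-67 antigen, chosen after its values were seen, was the exception within lines 2 and 3, since it was lower in all 3 lines (-1.24, -1.28 and -1.31, adjusted p = 0.201). It was at 254, 353 and 170 CPM without cytokine and at 107, 144 and 67.9 CPM with TGFβ. Mcm2, a replication licensing factor, chosen likewise, had changes of -0.24, 1.23 and 1.36. In the 6 lines of the other genotypes the medians of these genes were -2.75 and -0.39 (ΔHD1/fl), 0.12 and -0.68 (ΔHD1/-) and -0.42 and -1.65 (ΔHD2/fl).

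**Figure D4:**
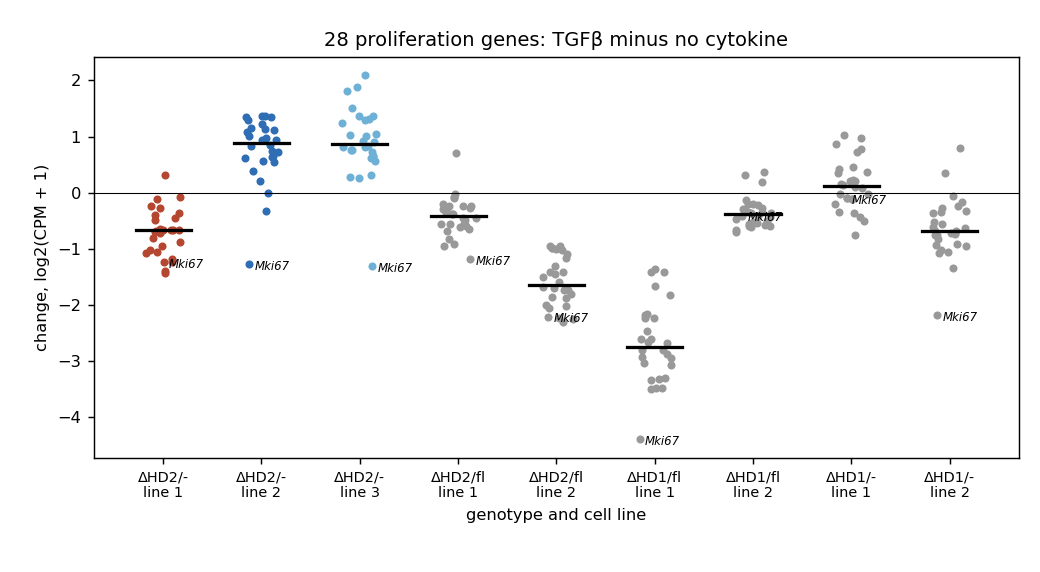
Log2 change with TGFβ of 28 proliferation genes, 1 point per gene, in each of the 9 cell lines, with the median as a bar and Mki67 named. The medians are -0.67 in ΔHD2/- line 1 and 0.89 and 0.87 in lines 2 and 3.

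Single genes with opposite changes, chosen after their values were seen, included secreted factors. Stc2, stanniocalcin 2, was at 3.58, 54.5 and 61.8 CPM without cytokine and at 36.2, 3.25 and 2.88 CPM with TGFβ, with changes of 3.02, -3.71 and -4.02 in lines 1, 2 and 3. Vegfa, the vascular endothelial growth factor, was at 96.5, 540 and 604 CPM untreated and at 599, 170 and 152 CPM treated (2.62, -1.66 and -1.98). In both genes line 1 without cytokine was near the level that lines 2 and 3 reached with TGFβ, and the reverse. Igfbp5, which binds insulin-like growth factors, was at 541, 1995 and 1768 CPM untreated and at 14.2, 5630 and 6792 CPM treated (-5.16, 1.5 and 1.94). Adamts1 was at 425, 3.38 and 3.27 CPM untreated and at 76.2, 32 and 29.6 CPM treated (-2.46, 2.92 and 2.84), and Postn, periostin, at 9.26, 22.4 and 3.43 CPM untreated and at 2.35, 287 and 101 CPM treated (-1.62, 3.62 and 4.52). With 1 line on one side these differences between lines have no replicate check.

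Promoters of called genes were read for letters that Smad and AP-1 factors are known to bind, because these factors act together at TGFβ targets. A RefSeq promoter of 300 bases, from 250 before to 50 after the annotated start, was found for 123 of the 187 genes called higher, 235 of the 305 called lower and 10461 of the 13270 tested. The letters searched on both strands were GTCTAGAC and CAGACAG for Smad, TGANTCA for AP-1 and CAGGTG for the E-box bound by Snail and Zeb factors. The AP-1 letters were present in 16 of the promoters of genes called higher (13%), in 18 of those called lower (7.66%) and in 555 of all (5.31%). The Smad letters were present in 11 (8.94%), 18 (7.66%) and 662 (6.33%), and the E-box letters in 19 (15.4%), 43 (18.3%) and 1809 (17.3%). These shares are descriptions with no test, and a match is not a site. The 250 bases before the start of 4 called genes with such letters are printed from RefSeq on GRCm38.p6, 5′ to 3′ in the direction of the gene, with the Smad and AP-1 matches in capitals and E-box matches left in lower case, because they hold the letters in genes described above. Mab21l4 (chr1:93160949-93161198, minus strand) held an AP-1 match 180 bases before the start, and Cldn4 (chr5:134946935-134947184, minus strand) held 2, the first of them 240 bases before it. Pdgfc (chr3:81036166-81036415, plus strand) held a Smad match 242 bases before the start, and Spp1 (chr5:104434861-104435110, plus strand), which fell, held one 35 bases before it. Grhl3 and Itgb8 (Smad) and Il1rn (AP-1), which also fell, held a match too and are not printed.
Mab21l4: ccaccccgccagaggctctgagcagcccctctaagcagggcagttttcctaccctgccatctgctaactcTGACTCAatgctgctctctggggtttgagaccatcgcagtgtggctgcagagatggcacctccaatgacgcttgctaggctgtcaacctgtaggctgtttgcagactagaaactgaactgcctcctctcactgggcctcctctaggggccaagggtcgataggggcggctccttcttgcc
Cldn4: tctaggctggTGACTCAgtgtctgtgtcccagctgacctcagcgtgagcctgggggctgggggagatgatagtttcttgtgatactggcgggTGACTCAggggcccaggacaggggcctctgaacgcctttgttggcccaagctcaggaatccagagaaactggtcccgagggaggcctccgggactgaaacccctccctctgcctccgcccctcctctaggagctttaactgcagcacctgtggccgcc
Pdgfc: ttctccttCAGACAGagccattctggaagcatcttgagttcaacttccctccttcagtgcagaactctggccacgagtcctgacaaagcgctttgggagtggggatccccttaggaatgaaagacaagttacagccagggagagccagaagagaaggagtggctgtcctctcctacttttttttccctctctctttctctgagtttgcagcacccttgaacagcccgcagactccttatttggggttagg
Spp1: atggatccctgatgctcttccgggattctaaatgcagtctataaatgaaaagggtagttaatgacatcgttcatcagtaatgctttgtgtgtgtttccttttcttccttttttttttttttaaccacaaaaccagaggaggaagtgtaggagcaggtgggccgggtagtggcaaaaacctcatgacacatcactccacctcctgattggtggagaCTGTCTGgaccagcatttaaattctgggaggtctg

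The direction of the called changes was then read in the lines of the other genotypes, which shared no library with these. Those lines entered the same limma fit and helped set the spread behind each call. This reading of direction is therefore not independent of the calls. Of the 492 called genes, 345 changed in the same direction in all 6 other lines (132 of those higher and 213 of those lower), 82 in 5, 42 in 4, 18 in 3, 4 in 2 and 1 in only 1. All 6 other lines shared the direction for 70.1% of the called genes and for 29.4% of all genes tested. The test of the difference itself, in the same limma fit over all libraries, called 13 genes between ΔHD2/- and ΔHD2/fl, 0.098% of those tested, 12 with a higher log2 change in ΔHD2/-. It called 4 genes (0.0301%) between ΔHD2/- and the mean of the other 3 genotypes. The ΔHD1/- and ΔHD2/- lines were made in culture from tumour cells that carried a floxed and a mutant copy. The titles do not say which line was the parent of which, so genotype and line of origin cannot be told apart. The 13 were led by genes that had reads in untreated ΔHD2/fl and next to none in untreated ΔHD2/-. A gene without reads in untreated ΔHD2/- could not fall there. The count of 13 and its direction are therefore not read as differences in response. Sostdc1, an inhibitor of Wnt and BMP signals, was at 0.349, 0 and 0 CPM in untreated ΔHD2/- lines and at 0 with TGFβ, whereas ΔHD2/fl lines went from 21.9 and 109 CPM to 0 and 4.33 CPM. In ΔHD2/- a fall of Sostdc1 could be read in line 1 alone, from 8 reads to 0, since lines 2 and 3 had none in either condition. Cdh15, a cadherin of muscle, went from 0.393, 0 and 0 CPM to 1.63, 1.11 and 1.38 CPM in ΔHD2/- and from 9.53 and 9.03 CPM to 0.0378 and 0.071 CPM in ΔHD2/fl. The difference in log2 change was 4.37 for Cdh15 (SE 0.46, adjusted p = 0.00114, limma) and is given without a test for Sostdc1 (4.3), which passed the filter through ΔHD2/fl alone. In the count test on recovered reads no gene passed in this comparison (edgeR, 949 genes at an unadjusted p under 0.05).

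Fbxo32, which codes for the muscle ubiquitin ligase atrogin-1, was the 1 of the 4 whose level was well above the counting floor in all ΔHD2/- lines. It was at 115, 43.5 and 34.7 CPM without cytokine and at 44.3, 25.5 and 17.2 CPM with TGFβ, and the changes were -1.35, -0.75 and -0.97. In the 4 ΔHD1 lines it went from 29.7, 12.5, 10.2 and 31.1 CPM to 390, 159, 54.2 and 169 CPM, and the changes were 3.67, 3.57, 2.3 and 2.41. In the 2 ΔHD2/fl lines the changes were -0.58 and 0.11, so the difference was carried by the ΔHD1 lines. The difference from the mean of the other genotypes was -2.94 (SE 0.34, adjusted p = 0.0108, limma), but it was lost without line 2 or 3 (adjusted p = 0.23 and 0.186). Between ΔHD2/- and ΔHD2/fl the difference in Fbxo32 did not pass the test (-0.79, SE 0.44, adjusted p = 0.629). Ly6a and Chst1 were also among the 4, and both were at or near 0 in lines 2 and 3.

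**Figure D5:**
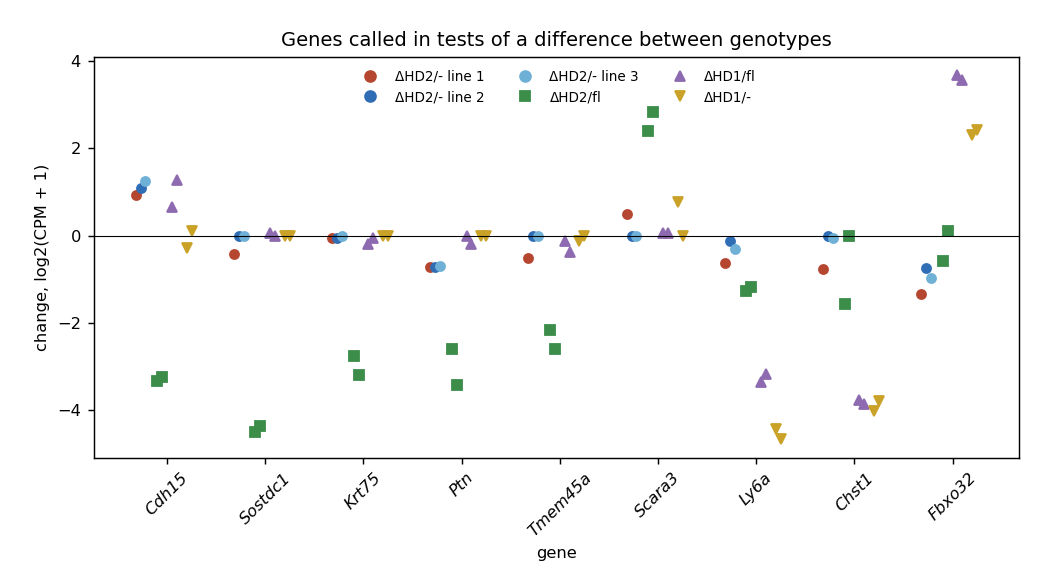
Log2 change with TGFβ in each of the 9 cell lines for 9 genes called in the tests of a difference between ΔHD2/- and other genotypes, 1 point per line. The points of Krt75, Scara3, Sostdc1, Tmem45a and Chst1 in ΔHD2/- rest on few or no reads. For Fbxo32 the ΔHD2/- lines lie at -1.35, -0.75 and -0.97 and the 4 ΔHD1 lines between 2.3 and 3.67.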

How the data were processed

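RNA was measured by RNA-seq in 9 mouse cell lines of 4 genotypes and 3 treatments, and the 6 libraries of the ΔHD2/- lines with TGFβ or no cytokine are described here. Per the labels and the study's methods, the authors used STAR to align reads to mm10 and keep unique hits, took the exon counts of RefSeq genes from QuasR and tested them with edgeR. The methods name both a NextSeq and a NovaSeq instrument, and the labels a NovaSeq. The deposited table holds CPM: the authors divided each gene's reads by the library's gene-assigned total and multiplied by 1000000, without other scaling. It lists 24454 genes, and 80 identifiers had no symbol.

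Divided by the smallest step of its library, every CPM value came out whole (100% within a tolerance of 0.02), which gave the reads and the depth of each library (21864011 to 33692360 reads over all 27). Intervals and counting floors cover counting error only. Genes reaching 1 CPM in at least 2 libraries were tested (13270). The test was limma 3.58.1 (R 4.3.3) on log2(CPM + 1), which understates the change of low genes, over all 27 libraries with the cell line as a block, a mean-variance trend and robust variances, on 10 residual degrees of freedom, with Benjamini-Hochberg adjustment. All log2 changes are TGFβ minus no cytokine on this scale. A call needed an adjusted p of at most 0.05, a log2 change of at least 1, and line 1 and the mean of lines 2 and 3 each changing by at least 1 in that direction. The differences between genotypes were contrasts of the same fit and needed the adjusted p and a difference of at least 1.

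The cell line pairs the libraries of a line number, because each line received both treatments. The deviations of the untreated and TGFβ libraries of one line from their group means had correlations of 0.723, 0.717 and 0.697. Untreated line 3 had 0.655 with TGFβ line 2, and untreated line 2 had 0.489 with TGFβ line 3. The check thus sets line 1 apart and separates lines 2 and 3 less well. The members, the gene lists and the tests were chosen with earlier results of these data known. Named genes were Bcl9 and Bcl9l, a preset group of EMT and TGFβ genes, the 12 called genes that rose and the 12 that fell most with at least 5 CPM in every library of the higher condition, up to 2 called genes each way per list (or the most abundant where none was called), and up to 5 called differences each way between genotypes. Genes named outside this rule are marked, and some genes under it are not reported here. Alternatives were a pseudocount of 0.1, no filter, scaling by the median of ratios, no block, the 6 compared libraries alone, lines 2 and 3 averaged, no agreement of the lines, other thresholds, edgeR 4.0.16 (quasi-likelihood) on the recovered reads, and leaving out each line. The fits were tested on simulated data with known changes. Promoters came from RefSeq on GRCm38.p6, with 1 promoter used per gene and chromosome 18 left out. Python 3.11.15, numpy 2.4.6, pandas 2.3.3, scipy 1.17.1 and matplotlib 3.10.9 were used.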

Additional observations from a re-analysis of the deposited data

Results flagged for a closer look

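The test of the difference in TGFβ response between ΔHD2/- and ΔHD2/fl lines (limma, Benjamini-Hochberg) called 6 named genes, of which only Cdh15 and Ptn had reads to compare in most ΔHD2/- lines. The difference, ΔHD2/- minus ΔHD2/fl, was 4.37 for Cdh15, 4.30 for Sostdc1, 2.93 for Krt75, 2.30 for Ptn, 2.21 for Tmem45a and -2.45 for Scara3. Of these, Krt75, Tmem45a, Scara3 and Sostdc1 had next to no reads in most ΔHD2/- libraries of either condition and passed the filter only through ΔHD2/fl, so their differences mostly describe ΔHD2/fl and are given as values, not as a difference in response. In the untreated and TGFβ libraries of ΔHD2/- lines 2 and 3 none of the 4 exceeded the floor of 3 reads, and in line 1 Tmem45a went from 11 reads to 1 and Sostdc1 from 8 to 0. With the compared groups alone the differences of Krt75, Ptn, Scara3 and Tmem45a were lost (adjusted p = 0.0955, 0.246, 0.209 and 0.229, limma). With edgeR 0 genes passed in this comparison (949 at an unadjusted p under 0.05). Krt75, a keratin of the hair follicle, went from 5.73 and 8.51 CPM to 0 and 0.0355 CPM in ΔHD2/fl, and none of the 6 untreated and TGFβ libraries of ΔHD2/- exceeded 0.045 CPM. Scara3 went from 0.302 and 0.074 CPM to 5.86 and 6.68 CPM in ΔHD2/fl, and in ΔHD2/- only treated line 1 had reads, at 0.416 CPM. Ptn, pleiotrophin, went from 0.655, 1.85 and 2.09 CPM to 0, 0.739 and 0.917 CPM in ΔHD2/-, and from 5.26 and 27.7 CPM to 0.0378 and 1.67 CPM in ΔHD2/fl. The Krt75 difference was lost without ΔHD2/- line 2 or 3 (adjusted p = 0.0856 and 0.0788, limma). The ΔHD2/- lines were made in culture from cells that carried a floxed and a ΔHD2 copy, and their parent lines were not given. Genotype and line of origin therefore cannot be told apart.

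The same test against the mean of the other 3 genotypes called Ly6a (2.66), Chst1 (2.56) and Fbxo32 (-2.94). Chst1 passed the filter only through the other genotypes, and its value is not given as a difference in response. Ly6a, the surface antigen Sca-1, went from 240 to 156 CPM in ΔHD2/- line 1, and lines 2 and 3 had at most 0.335 CPM, whereas its log2 change was between -4.67 and -1.17 in the 6 other lines. Chst1, a sulfotransferase, had no read in the treated ΔHD2/- lines and at most 0.699 CPM in untreated ones, 16 reads in line 1 and at most 1 read in lines 2 and 3, so a fall could be read in line 1 alone. Its difference was lost with the compared groups alone (adjusted p = 0.237, limma) and turned to -1.97 with edgeR. The Ly6a call was also lost with edgeR. Without line 2 or line 3 the differences were 2.55 and 2.64 for Ly6a (adjusted p = 0.23 and 0.186, limma) and 2.42 and 2.45 for Chst1 (adjusted p = 0.637 and 0.808), and neither passed.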

How the results depend on the processing

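Of the 492 called genes, 472 were among the 499 called by edgeR on recovered reads and 292 among the 330 called with the compared libraries alone. The count was 727 with a pseudocount of 0.1, 450 without a filter and 462 with median-of-ratios scaling. It was 800 with no agreement required, 2014 with the adjusted p alone (609 higher, 1405 lower) and 2146 with an unadjusted p and a 1.5-fold change, which loosen the rule. With lines 2 and 3 averaged, which leaves fewer samples, it was 285, all within the 492. Leaving out one line gave 270 to 882 genes (882, 299 and 270 without lines 1, 2 and 3). Without the block by line the paired libraries were compared as independent and 92 genes were called, all within the 492. For the difference from ΔHD2/fl, 13 genes, the count was 1 with a pseudocount of 0.1, 20 without a filter, 20 with median-of-ratios scaling, 4 with no replicate block, 2 with the compared libraries alone, 5 with lines 2 and 3 averaged, 944 at an unadjusted p and 0 with edgeR (949 genes at an unadjusted p under 0.05), and 5 to 244 without one line (244 without line 1). For the difference from the other genotypes, 4 genes, it was 1, 3 and 6 under the first 3 settings, 0 with no replicate block (272 at an unadjusted p under 0.05, limma), 2 with the compared libraries alone, 0 with lines 2 and 3 averaged (489), 1013 at an unadjusted p and 24 with edgeR, and 0 to 531 without one line (531 without line 1, and 0 by limma without line 2 or 3, with 509 and 496 at an unadjusted p under 0.05). The Chst1 difference turned to -1.97 with edgeR (adjusted p = 0.745), where its counts in ΔHD2/- were near 0. Where no construction is named, the cause was not tested. Of the named results, 51 lost their call without the block, 31 with the compared libraries alone, 23 with lines 2 and 3 averaged and 11 with edgeR. Under the floor of 3 reads no level or change was readable. The p-values count lines 2 and 3 as separate samples although these lie far closer to each other than to line 1, and without line 1 the calls describe that pair alone.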

Other observations

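Markers of basal and luminal cells did not all differ between the lines in the same way. Krt14, a keratin of basal cells, was at 1000, 1453 and 1207 CPM without cytokine and at 282, 1025 and 1106 CPM with TGFβ. Trp63, the p63 factor of basal cells, was at 46.8, 0.721 and 0.209 CPM without cytokine and under 0.5 CPM in all 3 treated libraries. Krt18, a luminal keratin, was at 1506, 163 and 217 CPM without cytokine and at 2280, 506 and 558 CPM with TGFβ. Fst, follistatin, which binds activins, was at 176, 38.7 and 42.2 CPM untreated and at 1.63, 51.6 and 44.6 CPM treated, so it was low with TGFβ in line 1 alone. None of these genes was called, and all were chosen after their values were seen.

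The changes of Fermt1 were nearly equal in all 3 lines. Fermt1, kindlin-1, which activates integrins, was at 82.2, 61 and 61.4 CPM without cytokine and at 654, 474 and 487 CPM with TGFβ, with changes of 2.98, 2.94 and 2.97 (adjusted p = 4.89e-06, limma). Odaph was at 6.33, 0.946 and 1.21 CPM untreated and at 71.9, 33.8 and 36.1 CPM treated (3.85, adjusted p = 1.01e-05, limma), with changes of 3.31, 4.16 and 4.07. Both genes were chosen after their values were seen.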
